A study of Arabidopsis thaliana with 8 samples.

Results

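The genes described belong to the cold, abscisic acid and late embryogenesis abundant (LEA) response and were followed across 4 Arabidopsis genotypes: LTI30, COR47, COR15A, COR15B and AT3G02480. They were chosen by name, and all 5 were found among the 13356 genes that could be named from 22746 tested probe sets. Each has 1 probe set and 1 locus: AT3G50970 for LTI30, AT1G20440 for COR47, AT2G42540 for COR15A, AT2G42530 for COR15B, and AT3G02480 itself. The seedlings had neither cold nor abscisic acid treatment, per the labels, so the values are levels in untreated plants. Earlier results of these arrays were known when the genes were chosen, and AT3G02480 was already known to be higher in the IBM1 knockout. That gene's difference is therefore not independent evidence for the group.

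The plants were accession Col-0 seedlings aged 12 days, whose aerial parts were sampled without treatment. Each group had 2 Affymetrix ATH1 arrays: wild type (WT), JMJ24 knockout, IBM1 knockout and JMJ24-IBM1 double knockout, the last lacking both genes. The labels do not name the alleles, say whether a knockout is 1 line, or say whether the arrays of a group were grown apart, so the p-values rest on a spread between arrays that may be technical. Both targeted genes encode jumonji proteins, a family that includes histone demethylases, and their own probe sets are unnamed here, so the labels have no check from the knocked-out transcripts.

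LEA proteins are very hydrophilic proteins that build up in maturing seeds and in drying or chilled tissues, where they help to keep membranes and enzymes intact. Dehydrins such as COR47 and LTI30 form one LEA group. COR15A and COR15B are imported into the chloroplast and protect its inner membrane when leaves freeze. In cold, CBF transcription factors bind a short element in the promoters of such genes, while abscisic acid acts through receptors, phosphatases and kinases on bZIP factors that bind another element.

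All values are GCRMA values on the log2 scale, where a difference of 1 is a doubling of signal. The total RNA yield given in the labels was lowest for the 2 IBM1 knockout samples, at 24 and 16.2 µg, against 27 to 45.5 µg for the others, and its part in the results below was not tested. Replicate arrays correlated between 0.988 and 0.993 over all probe sets. All 5 genes lay above the lower quartile of probe sets on all 8 arrays. That quartile, 2.49 to 2.53, is used here as the mark of near background. In whole aerial tissue, fewer cells that use a gene and less RNA per cell cannot be told apart. Of 15 marker genes listed for leaf, root and seed, 2 were measured under a name. RCA, the leaf gene for Rubisco activase, lay between 12.81 and 12.95 on every array. PYK10, a beta-glucosidase known from roots and hypocotyls, was also well above background in these aerial parts, between 8.65 and 9.63.

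AT3G02480, a small LEA family gene, was high with loss of IBM1 alone. It measured 4.41 and 4.29 in WT, 4.61 and 4.91 with JMJ24 lost, 5.99 and 6.11 with IBM1 lost, and 4.37 and 4.44 with both lost. Both IBM1 knockout arrays lay far above the other 6, both JMJ24 knockout arrays lay slightly above WT, and the double knockout overlapped WT.

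Against WT, AT3G02480 rose by 1.70 with IBM1 loss, a 3.24-fold change (95% interval 1.40 to 1.99 on the log2 scale, limma adjusted p = 0.0245). From the IBM1 knockout to the double knockout it fell by 1.64 (interval -1.93 to -1.35, limma adjusted p = 0.0277). Both differences rest on the same IBM1 knockout arrays. The difference between the double knockout and WT was 0.06, with an interval from -0.24 to 0.35, so a remaining rise as large as that of the IBM1 knockout lies outside that interval. JMJ24 knockout minus WT was 0.41 (interval 0.12 to 0.70) and did not pass over all probe sets (limma adjusted p = 0.973). In level order the IBM1 knockout came first, then the JMJ24 knockout, the double knockout and WT. The last pair did not differ beyond its spread. IBM1 knockout minus JMJ24 knockout, a pair added to complete the order, was 1.29 and was called (limma adjusted p = 0.0412), as were 0.215% of probe sets.

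The call for AT3G02480 depended on the arrays that set the common spread. Its IBM1 knockout minus WT difference stayed between 1.64 and 1.76 when 1 array was left out, but kept its call only without IBM1 knockout replicate 1. Without any other single array (either WT, JMJ24 knockout or double knockout array, or IBM1 knockout replicate 2) the limma adjusted p ran from 0.0510 to 0.145. PYK10 was also higher on the IBM1 knockout arrays, at 9.26 and 9.63 against 8.65 and 8.85 in WT, without passing (limma adjusted p = 0.44). In the double knockout PYK10 stood at 8.65 and 9.59, and AT3G02480 at 4.37 and 4.44. Any link of the AT3G02480 difference to tissue make-up was not tested.

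**Figure D1:**
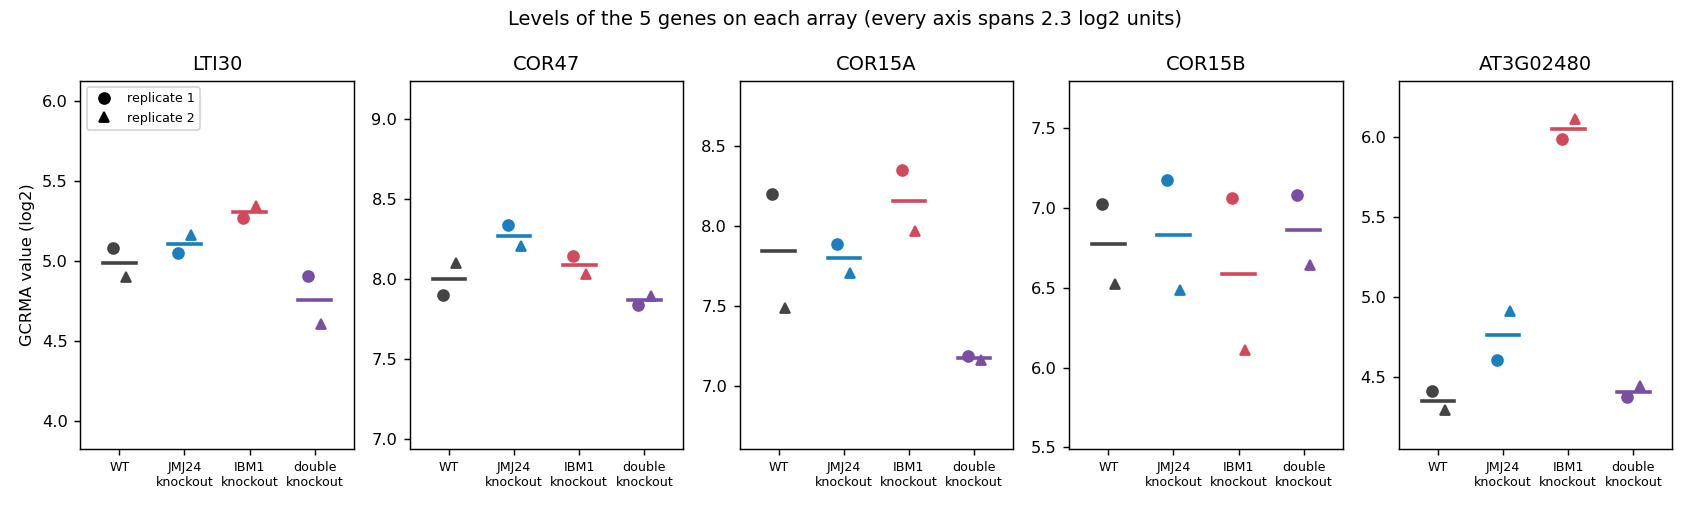
GCRMA value (log2) of each of the 5 genes on each array; circles are replicate 1, triangles replicate 2 and bars the mean of the 2 arrays of a genotype. AT3G02480 stands at 5.99 and 6.11 in the IBM1 knockout against 4.29 to 4.91 elsewhere, COR15A is lowest in the double knockout at 7.19 and 7.16, and COR15B spreads as widely within genotypes as between them.

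LTI30, a dehydrin also called XERO2 that binds membranes, also had its highest level in the IBM1 knockout, by a much smaller difference. Its arrays read 5.08 and 4.90 in WT, 5.05 and 5.17 with JMJ24 lost, 5.27 and 5.35 with IBM1 lost, and 4.91 and 4.61 with both lost. The IBM1 knockout arrays were the highest of the 8, and the double knockout overlapped WT by a narrow margin.

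IBM1 knockout minus WT was 0.32 for LTI30 (interval 0.01 to 0.63, limma adjusted p = 0.324). Double minus IBM1 knockout was -0.55 (interval -0.86 to -0.25, limma adjusted p = 0.221), and neither difference passed. In the order IBM1 knockout, JMJ24 knockout, WT and double knockout, no neighbouring pair had an interval that left out 0.

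COR47, the other dehydrin, is an acidic protein induced by cold, drought and abscisic acid. It measured 7.90 and 8.10 in WT, 8.33 and 8.20 with JMJ24 lost, 8.14 and 8.03 with IBM1 lost, and 7.84 and 7.89 with both lost. Here the JMJ24 knockout was highest and the double knockout lowest, and neither overlapped another genotype, although the double knockout lay only just below WT.

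The widest gap for COR47 was double minus JMJ24 knockout, at -0.40 (interval -0.63 to -0.18), a 1.32-fold lower signal, with limma adjusted p = 1. JMJ24 knockout minus WT was 0.27 (interval 0.05 to 0.50, limma adjusted p = 1). IBM1 knockout minus WT was 0.09, with an interval from -0.14 to 0.31. The upper end of that interval lies below the 1.70 of AT3G02480.

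COR15A and COR15B are neighbours in the genome and encode related proteins, so their probe sets may share signal, which was not tested. COR15A measured 8.20 and 7.49 in WT, 7.89 and 7.71 with JMJ24 lost, 8.35 and 7.97 with IBM1 lost, and 7.19 and 7.16 with both lost. Both double knockout arrays were below the other 6. Among those, WT overlapped each single knockout, while both IBM1 knockout arrays lay above both JMJ24 knockout arrays. The mean difference of that last pair was 0.36, with an interval from -0.30 to 1.02.

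Double minus IBM1 knockout was -0.98 for COR15A, a 1.98-fold lower signal (interval -1.64 to -0.33, limma adjusted p = 0.276). Against WT the double knockout stood at -0.67 (interval -1.33 to -0.01, limma adjusted p = 0.892), and against the JMJ24 knockout at -0.62 (interval -1.28 to 0.04, limma adjusted p = 1). None passed. The second of these depended on which WT array was kept: without WT replicate 2 the double knockout stood at -1.02 against WT, and without WT replicate 1 at -0.31.

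COR15B measured 7.02 and 6.52 in WT, 7.17 and 6.48 with JMJ24 lost, 7.06 and 6.11 with IBM1 lost, and 7.08 and 6.64 with both lost. The groups overlapped throughout, and in every genotype replicate 1 was the higher array. No order of genotypes can be read for it: the differences between neighbouring group means ran from 0.03 to 0.19, while the 2 arrays of a genotype differed by 0.44 to 0.95. Double minus IBM1 knockout was 0.27, on the other side of 0 from the value of COR15A, with an interval from -0.79 to 1.34 that holds both directions.

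Replicates lay apart to different degrees in the 5 genes. The gap between the 2 arrays of COR15B was as large as or larger than that of 94.9% of probe sets for WT, 97.4% for the JMJ24 knockout, 99.2% for the IBM1 knockout and 87.8% for the double knockout. COR15A had its widest gap in WT, at 0.71, and its narrowest in the double knockout, at 0.03. For AT3G02480 the gap ran from 0.07 to 0.31, next to medians over all probe sets of 0.08 to 0.11. Replicate 1 was also above replicate 2 for COR15A in all 4 genotypes, but not for LTI30, COR47 or AT3G02480.

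**Figure D2:**
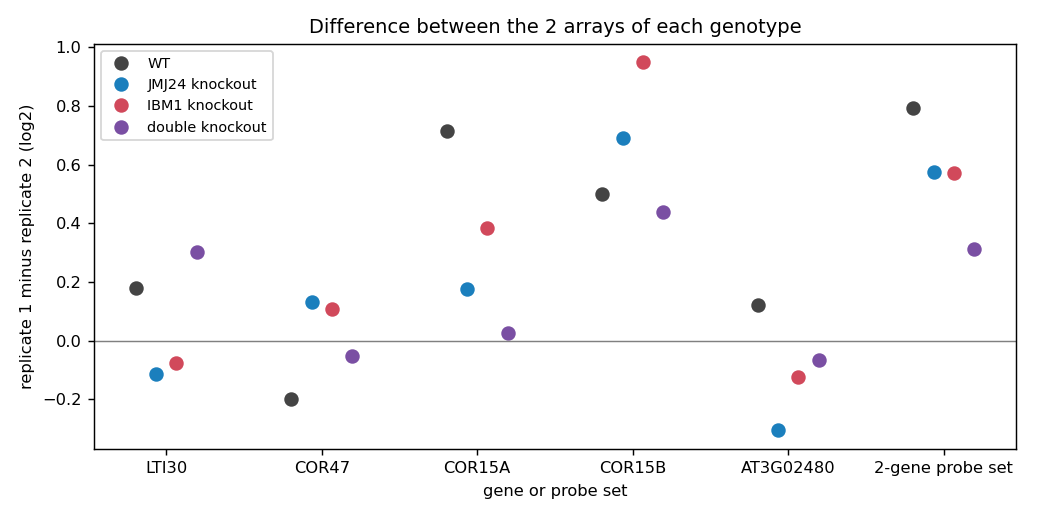
Replicate 1 minus replicate 2 (log2) for each of the 5 genes and for 1 probe set annotated to a pair of cold-induced genes, with 1 point per genotype. All 4 points lie above 0 for COR15B, from 0.44 to 0.95, for COR15A, from 0.03 to 0.71, and for the 2-gene probe set, from 0.31 to 0.79; they straddle 0 for the other genes.

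Across the 5 genes limma called 1 rise with IBM1 loss, where 0.264% of all probe sets were called higher, and 1 fall from the IBM1 to the double knockout, where 0.207% were called lower. Both calls were AT3G02480. None was called for JMJ24 knockout minus WT (0.00879% of all probe sets), double knockout minus WT (0.00879%), double minus JMJ24 knockout (0%) or the interaction (0.0132%), and limma-trend called none there either. At an unadjusted p under 0.05 there were 2 of 5 for JMJ24 loss, 1 for the double knockout against WT, 3 against the JMJ24 knockout and 4 for the interaction. The shares over all probe sets at that threshold were 4.04%, 5.54%, 3.35% and 7.72%. For IBM1 loss and for double minus IBM1 knockout there were 2 and 3 of 5, next to 14.4% and 11.1%.

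Read by array, the double knockout lay below each single knockout for most of the genes. In 4 of the 5 genes both double knockout arrays lay below both JMJ24 knockout arrays, as did 9.71% of probe sets, and below both IBM1 knockout arrays, as did 14.8%. The exception in each case was COR15B. Against WT the double knockout was lower without overlap in 2 of 5, COR47 and COR15A, where 11.5% of probe sets were, with a median difference of -0.13 next to 0.00. AT3G02480 and COR15B had mean differences from WT of 0.06 and 0.09. The comparisons share the double knockout arrays and the genes were picked with results known, so the counts are a description. The median difference of the 5 genes was -0.35 for double minus JMJ24 knockout and -0.55 for double minus IBM1 knockout, next to 0.00 and 0.01 over all probe sets. For IBM1 knockout minus WT the median was 0.32, next to -0.01, and 2 of 5 genes, AT3G02480 and LTI30, did not overlap, where 19.2% of probe sets were higher without overlap.

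The interaction, which asks whether JMJ24 loss acts differently with and without IBM1, was -2.05 for AT3G02480 (interval -2.46 to -1.64, limma adjusted p = 0.0938). It was -0.94 for COR15A, -0.67 for LTI30 and -0.49 for COR47, and 0.22 for COR15B, with limma adjusted p from 0.47 to 1. None passed over all probe sets.

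**Figure D3:**
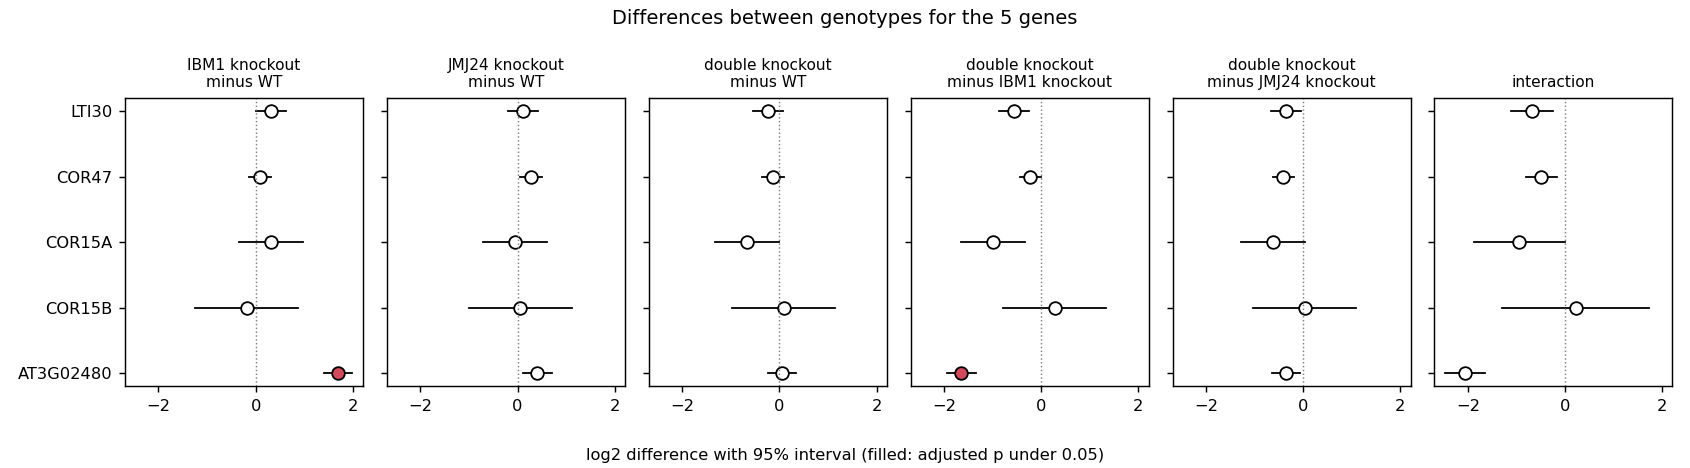
Log2 difference of each of the 5 genes in the 6 comparisons, with 95% intervals from the limma fit; filled points have an adjusted p under 0.05. The filled points are AT3G02480 at 1.70 for IBM1 knockout minus WT and at -1.64 for double minus IBM1 knockout, and the intervals of COR15B cross 0 in every panel.

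Over the 8 arrays LTI30 correlated with COR15A at 0.804 and with AT3G02480 at 0.782, and COR15A with AT3G02480 at 0.606. COR15B correlated with AT3G02480 at -0.348 and with COR15A, its genomic neighbour, at 0.154. These points share 4 genotypes and 2 replicate numbers, so the values only describe these arrays. After the group means were taken out, COR15A and COR15B correlated at 0.764, LTI30 with COR15A at 0.275 and COR15A with AT3G02480 at -0.0612. COR47 then correlated with AT3G02480 at -0.777 and with LTI30 at -0.741, and COR15B with AT3G02480 at -0.619. The 2 deviations of a genotype mirror each other, so only the replicate differences of the 4 genotypes enter these values.

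Among 1363 named probe sets that varied (standard deviation of at least 0.3 over the 8 arrays), those most like AT3G02480 were CHX16, a cation/H+ exchanger gene, with r = 0.978, AT5G17760 with r = 0.970, and ICL, an isocitrate lyase that plants use to turn stored fat into sugar, with r = 0.970. LTI30 was most like FaTA, an acyl-ACP thioesterase gene of fatty acid synthesis, with r = 0.872, EXPA4, an expansin gene, with r = 0.788, and AT1G07870 with r = 0.773. COR47 was most like TRM82 with r = 0.891, AT3G57010 with r = 0.793 and AT2G15240 with r = 0.785. LTI30 and COR47 themselves varied less than the candidates had to, with standard deviations of 0.236 and 0.172. Every r here is among the highest of 1363 over only 8 arrays. CHX16, AT5G17760 and ICL were themselves called higher with IBM1 loss, by 0.839, 1.095 and 1.089 (limma adjusted p = 0.0433, 0.0172 and 0.0145). They were picked for likeness to AT3G02480 over the same arrays, the IBM1 knockout included, so these calls are no added support. At their lowest, CHX16 and ICL lay below the lower quartile. The likeness of these genes to AT3G02480 was not tested apart from the rise they share with it. COR15A was most like AT5G06190 with r = 0.866, AT2G40435 with r = 0.849 and AT3G03770 with r = 0.846. COR15B was most like AT3G52070 with r = 0.947, AT1G56300 with r = 0.943 and AT1G76590 with r = 0.939.

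Of the wider LEA family, 30 further genes of the lists had a named probe set, 7 of them at or below the lower quartile on all 8 arrays. Several stood high with IBM1 loss alone, as AT3G02480 did. LEA18, also called LEA4-2, was the only one called: it measured 2.80 and 2.80 in WT, 2.76 and 2.81 with JMJ24 lost, 3.32 and 3.38 with IBM1 lost, and 2.81 and 2.70 with both lost. It rose by 0.55 with IBM1 loss (limma adjusted p = 0.0361) and fell by 0.59 from the IBM1 to the double knockout (limma adjusted p = 0.0377), in each case close to background.

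M17, a LEA gene known from seeds, had the widest difference but the least even arrays. It was at 2.49 to 2.52 in WT and the JMJ24 knockout, at 3.83 and 5.43 with IBM1 lost, and at 2.53 and 2.48 with both lost. All arrays outside the IBM1 knockout lay at or below the lower quartile. With values below that quartile raised to it, the IBM1 knockout mean stood 2.12 above WT on the log2 scale, 4.36-fold higher. That figure allows for background only and not for the spread between arrays. As measured, the difference was 2.125 (interval 0.86 to 3.39) and did not pass (limma adjusted p = 0.154). AT2G46140, also called LEA27, measured 3.14 and 3.07 in WT, 3.30 and 3.14 with JMJ24 lost, 4.53 and 4.26 with IBM1 lost, and 2.97 and 3.37 with both lost. Its difference of 1.29 did not pass (limma adjusted p = 0.0663).

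In the LEA lists, the 5 genes left out, 10 of 30 genes had both IBM1 knockout arrays above both WT arrays and none had both below, against 19.2% and 18.7% of all probe sets. Their median difference was 0.03, next to -0.01 over all probe sets, and 0.04 without the 7 genes near background on all arrays. Without those 7, the genes higher without overlap were 9 of 23, and none was lower. From the IBM1 to the double knockout 8 of the 30 were lower without overlap and 2 higher, against 14.8% and 16.2%. Against WT the double knockout had 3 higher and 0 lower, against 13.1% and 11.5%. The direct counts of calls were 1 of 30 up with IBM1 loss, next to 0.264% of all probe sets. From the IBM1 to the double knockout 1 of 30 was down, next to 0.207%. Both calls were LEA18.

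Of 4 further dehydrins measured, none was called in any comparison. AT1G54410, known as HIRD11, was bright in all plants and had its lowest mean in the IBM1 knockout, at 11.3 and 11.4, which overlapped the 11.6 and 11.4 of WT. In the double knockout it was at 11.7 on both arrays. AT4G38410 did not exceed the lower quartile on any array, and differences below it have no meaning here.

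**Figure D4:**
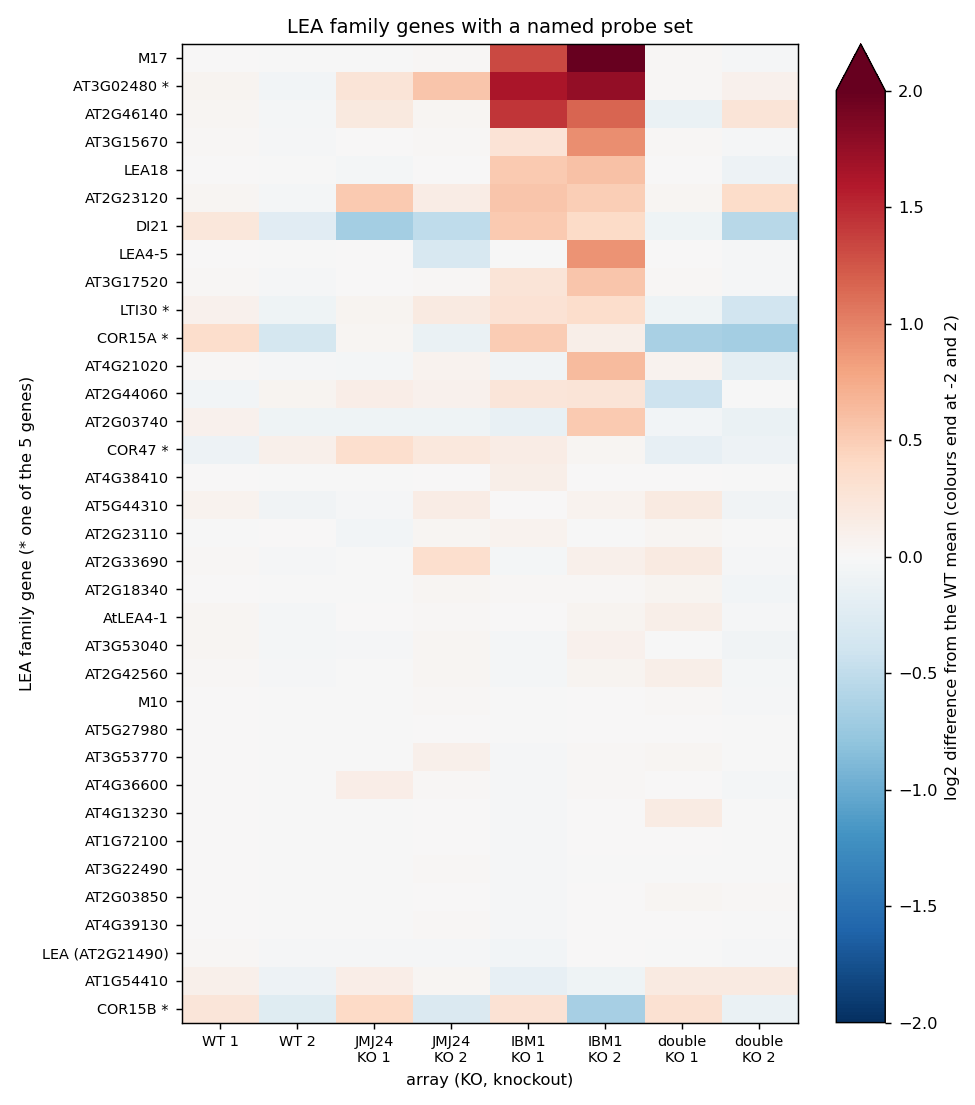
Log2 difference from the WT mean for 35 LEA family genes with a named probe set, by array, ordered by the IBM1 knockout; stars mark the 5 genes and values beyond 2 share the darkest colour. The red cells lie mostly in the 2 IBM1 knockout columns, led by M17, AT3G02480 and AT2G46140, while COR15A is blue on both double knockout arrays.

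The cold and abscisic acid machinery itself was hardly covered by named probe sets. None of 29 genes for abscisic acid receptors and signalling and none of 13 for its synthesis and breakdown was measured under a name, nor was any CBF gene. Of 21 other cold or abscisic acid responsive genes 2 were measured. COR27 stayed between 2.47 and 2.55, around the lower quartile, and AT4G33980, listed as COR28, never exceeded it. None of the 33 further genes of all 6 lists was called for JMJ24 loss, for the double knockout against WT or against the JMJ24 knockout, or for the interaction.

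STZ, also called ZAT10, a zinc finger repressor induced by cold, salt and wounding, was the only one of 13 cold signalling genes measured. It read 3.01 and 3.25 in WT, 5.73 and 3.33 with JMJ24 lost, 4.60 and 3.52 with IBM1 lost, and 3.82 and 5.54 with both lost. Both arrays of each knockout lay above both WT arrays, as did 19.2% of probe sets for IBM1 loss and 13.1% for the double knockout. The differences of STZ did not pass. Its 2 IBM1 knockout arrays also lay apart. Farthest from their own replicates were JMJ24 knockout replicate 1 and double knockout replicate 2. Of the 5 genes only COR47 was higher on both of these arrays than on their replicates, at 8.33 against 8.20 and 7.89 against 7.84. COR15A and COR15B were higher on the first of them only, AT3G02480 on the second only, and LTI30 on neither. These arrays enter neither mean of IBM1 knockout minus WT, but they enter the common spread: with both left out AT3G02480 had a limma adjusted p of 0.0782 there. Double minus IBM1 knockout, which uses one of them, was then -1.675 for AT3G02480 (limma adjusted p = 0.0988).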

How the data were processed

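RNA of 8 seedling samples was measured on Affymetrix ATH1 arrays. Per the submitters' processing notes the authors used GCRMA; its version was not found in the labels. The deposited values are log2 signals per probe set, from 2.02 to 13.6. Of 22810 probe sets, 64 controls were left out. The platform annotation named 1 gene for 13513 probe sets and several for 503, while 8730 are unnamed here; symbols were updated through the RefSeq gene table of TAIR10.1 (13436 matched), used only for names and neighbours. The brightest probe set stood for a gene in list counts.

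Genotype means were fitted to all 8 arrays and all probe sets with limma 3.58.1 in R 4.3.3 (4 residual and 1.2 prior degrees of freedom), with Benjamini-Hochberg adjustment and calls at an adjusted p under 0.05. It was tested on simulated data. The interaction is the effect of JMJ24 loss in plants without IBM1 less that in plants with it. The number of arrays limits the precision.

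The 5 genes, 6 lists of 127 genes and 15 markers were chosen with earlier results of these data known. Beside the 5, the named genes were every called list gene, the 2 per list with the largest IBM1 knockout minus WT difference, and the 3 per gene most alike by Pearson r. Settings tried were limma-trend, median centring, further quantile normalization, only probe sets with a group mean of 5 or more, only the 2 groups compared, a replicate block, an added fold threshold of 1, and each array left out. A crossed block and the removal of 2 arrays were added after seeing the data.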

Additional observations from a re-analysis of the deposited data

Results flagged for a closer look

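The effect of JMJ24 loss on AT3G02480 had opposite signs with and without IBM1. Both JMJ24 knockout arrays lay above both WT arrays, with a mean difference of 0.41 that did not pass (limma adjusted p = 0.973) and ran from 0.26 to 0.56 with 1 array left out. Both double knockout arrays lay below both IBM1 knockout arrays, with a mean difference of -1.64. The interaction was -2.05, and it did not pass over all probe sets (limma adjusted p = 0.0938, between 0.0572 and 0.391 under the alternatives). COR47 had a difference of 0.27 with IBM1 (limma adjusted p = 1) and of -0.22 without it (95% interval -0.45 to 0.003, limma adjusted p = 0.456), so neither passed and the second interval holds 0. Its arrays did not overlap in either comparison, with an interaction of -0.49 that did not pass either (limma adjusted p = 0.47, between 0.32 and 0.76 under the alternatives). Over all probe sets 14.8% were lower without overlap for double minus IBM1 knockout. No such share is given here for JMJ24 knockout minus WT, so non-overlap there cannot be weighed for either gene.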

How the results depend on the processing

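The 2 called differences of AT3G02480 kept their direction under every alternative, from 1.64 to 1.76 for IBM1 knockout minus WT and from -1.70 to -1.58 for double minus IBM1 knockout. AT3G02480 passed the dim filter only through its IBM1 knockout mean of 6.05, as its other group means lay below 5. Its calls under that filter are therefore no support. The calls held under the dim filter, quantile normalization, centring, limma-trend, the fold threshold and without IBM1 knockout replicate 1. They were lost, leaving 0 of 5 genes called in both comparisons, with the 2 compared groups alone (limma adjusted p = 0.0782 and 0.273), with the replicate block (0.0673 and 0.0823), with both doubted arrays left out (0.0782 and 0.0988), and without any 1 of the other 7 arrays, so that leaving out 1 array gave 0 to 1 calls. With the 2 groups alone and with the replicate block, 0 of all 22746 probe sets were called in either comparison. In the main fit 76 and 55 were. Apart from fewer arrays or degrees of freedom, the cause of the lost calls was not tested. In the other 4 comparisons 0 of 5 genes were called under each alternative.

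The labels do not say what the replicate numbers mark, and with 2 arrays per genotype they were not taken as pairs. Differences between replicates 1 and 2 correlated at 0.208, 0.164 and 0.156 among WT, IBM1 and double knockout, and for the JMJ24 knockout at 0.0367 with WT, 0.121 with the IBM1 knockout and -0.31 with the double knockout. Whether some numbers mark a shared batch was not settled. The balanced block leaves each difference as it was by construction and changes only its error. With the double knockout numbers crossed, 0 of the 5 genes and 0 list genes were called in any comparison.

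Over all 22746 probe sets 76 were called for IBM1 loss and 55 for double minus IBM1 knockout. With limma-trend these were 112 and 63. Of the other list genes, LEA18 was the 1 called in each of 2 comparisons. For IBM1 loss the count was 0 with the dim filter, which leaves LEA18 out, the fold threshold, the 2 groups alone, the block and both doubted arrays left out, 2 with limma-trend, and 0 to 3 with 1 array left out. For double minus IBM1 knockout it was 0 with the same settings that gave 0 for IBM1 loss and also with quantile normalization and centring, and 0 to 3 with 1 array left out. For the interaction it was 0 to 2 with 1 array left out.

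Among differences that were not called, leaving out 1 array turned the sign of COR15B in all 6 comparisons: -0.66 to 0.29 for IBM1 loss, -0.29 to 0.40 for JMJ24 loss, -0.16 to 0.34 for the double knockout against WT, -0.20 to 0.75 against the IBM1 knockout, -0.32 to 0.38 against the JMJ24 knockout and -0.26 to 0.69 for the interaction. It also turned COR15A for IBM1 loss (-0.04 to 0.67) and JMJ24 loss (-0.40 to 0.31), COR47 for IBM1 loss (-0.012 to 0.19) and AT3G02480 in the double knockout against WT (-0.004 to 0.12). With both doubted arrays left out COR15B stood at -0.29 for JMJ24 loss. LTI30 kept its sign in all 6 comparisons.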

Other observations

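A further cold-induced signal came from a probe set annotated to 2 genes of the cold list, which is not named by gene. It read 10.3 and 9.48 in WT, 10.7 and 10.1 with JMJ24 lost, 10.5 and 9.97 with IBM1 lost, and 10.4 and 10.1 with both lost. None of its differences passed, and IBM1 knockout minus WT was 0.39 (limma adjusted p = 0.798). As for COR15A and COR15B, replicate 1 was above replicate 2 in all 4 genotypes, by 0.31 to 0.79. Over all probe sets 5.93% had replicate 1 higher in all 4 genotypes, and 0.233% had it higher by at least 0.3 in each, as COR15B and this probe set did. The labels do not say whether the replicate number marks a harvest or a culture, and its part in these gaps was not tested.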
